A study of Mus musculus with 5 samples.

Results

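The acinar transcription factors described here are the 10 genes Ptf1a, Rbpjl, Rbpj, Bhlha15, Nr5a2, Gata4, Gata6, Xbp1, Foxp2 and Mecom, chosen by gene symbol in the array's annotation. They were read by 12 of the array's 28853 probe sets and make up 10 of the 19938 genes compared. Expression in whole pancreas of neonatal mice at postnatal day 1 was compared between 3 Pdx1cKO mice and 2 control mice of the same litter, with 1 Mouse Gene 1.0 ST array per mouse. Pdx1cKO mice carry Elastase-Cre and Pdx1loxP/loxP: the Cre recombinase, driven by an elastase promoter, removes Pdx1 from exocrine cells, while proximal ducts and endocrine cells keep the gene. Controls are labelled as not recombined, and the sources used here do not give their alleles. The deposited values are normalized intensities in arbitrary units, and fold changes are given on the log2 scale as Pdx1cKO minus control.

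Acinar cells make and store the digestive enzymes of the pancreas, and a small set of transcription factors switches on and keeps up this program. PTF1A, a basic helix-loop-helix protein, joins an E-protein such as TCF3 and an RBPJ-type subunit to form the PTF1 complex, which binds the promoters of enzyme genes. RBPJ, the DNA-binding protein of the Notch pathway, fills the last position in the early bud, and RBPJL, its pancreas-restricted relative, replaces it as acinar cells mature. BHLHA15, also called MIST1, and XBP1 expand the secretory apparatus, NR5A2 is a nuclear receptor that acts together with PTF1, and GATA4 and GATA6 act from the early bud onward.

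The PTF1 complex reads an E-box, CANNTG, next to a TC-box, TTTCCC, and RBPJ-type proteins also read TGGGAA, so promoters are shown for a pair of the factors (Rbpjl and Bhlha15) and a pair of enzymes with strongly negative fold changes (Ctrl and Cela1). The 300 bases run from 250 before to 50 after the RefSeq transcript start of GRCm38.p6, 5′ to 3′ in the sense of the gene, and capitals mark the E-box (CANNTG), the TC-box (TTTCCC) and the RBPJ core TGGGAA on either strand. The regions are chr2:164402944-164403243 (plus strand, Rbpjl), chr5:144190036-144190335 (plus strand, Bhlha15), chr8:105933813-105934112 (minus strand, Ctrl) and chr15:100687871-100688170 (minus strand, Cela1).
Rbpjl: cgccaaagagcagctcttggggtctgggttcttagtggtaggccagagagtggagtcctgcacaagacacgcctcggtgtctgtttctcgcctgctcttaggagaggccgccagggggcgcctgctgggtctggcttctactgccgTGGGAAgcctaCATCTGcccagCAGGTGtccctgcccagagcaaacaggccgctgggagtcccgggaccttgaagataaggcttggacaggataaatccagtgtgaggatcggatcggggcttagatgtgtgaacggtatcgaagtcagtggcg
Bhlha15: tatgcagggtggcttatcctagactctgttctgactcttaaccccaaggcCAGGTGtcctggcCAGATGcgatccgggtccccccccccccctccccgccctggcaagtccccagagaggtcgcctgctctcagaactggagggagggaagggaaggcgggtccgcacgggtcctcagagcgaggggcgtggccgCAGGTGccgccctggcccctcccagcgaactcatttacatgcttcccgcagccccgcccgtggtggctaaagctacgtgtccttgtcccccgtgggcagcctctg
Ctrl: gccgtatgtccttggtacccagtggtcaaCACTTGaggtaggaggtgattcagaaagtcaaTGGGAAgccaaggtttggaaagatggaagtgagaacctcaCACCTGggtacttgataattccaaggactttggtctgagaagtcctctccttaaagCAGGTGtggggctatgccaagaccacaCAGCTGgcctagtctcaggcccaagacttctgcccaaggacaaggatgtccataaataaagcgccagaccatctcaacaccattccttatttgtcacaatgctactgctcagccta
Cela1: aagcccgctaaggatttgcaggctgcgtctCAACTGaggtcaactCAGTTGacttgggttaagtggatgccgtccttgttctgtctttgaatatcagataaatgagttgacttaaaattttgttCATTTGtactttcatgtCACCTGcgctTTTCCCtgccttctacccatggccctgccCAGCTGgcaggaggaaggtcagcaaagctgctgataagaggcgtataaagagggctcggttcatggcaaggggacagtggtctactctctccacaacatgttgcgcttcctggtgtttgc
In the Cela1 promoter the E-box CACCTG began at -109 from the start and TTTCCC at -99, with 4 bases between them. In the Rbpjl promoter TGGGAA began at -104 and the E-box CATCTG at -93, with 5 bases between them, and a further E-box, CAGGTG, began at -82. The Bhlha15 promoter held E-boxes at -200, -187 and -55 and neither other motif. The Ctrl promoter held 4 E-boxes and TGGGAA at -189.

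RefSeq promoters were matched for 7 of the 10 factors and 19 of the 23 measured enzymes. CACCTG, the E-box that reads CAGGTG on the other strand, was present in 5 of 7 factor genes (71.4%) and 12 of 19 enzyme genes (63.2%), against 22.6% of all 27025 genes in the table. TTTCCC was present in 4 of 7 factor genes and 8 of 19 enzyme genes, against 27.9% of all genes. A run of TTTCCCA counts as TTTCCC and, on the other strand, as TGGGAA. Any CANNTG was found in 6 of 7 factor genes, with Ptf1a as the one without, and in 75.0% of all genes. The NR5A2 motif AAGGTCA was found in 0 of 7 factor genes, 3 of 19 enzyme genes and 5.38% of all genes, and the motif GATAA of GATA factors in 5 of 7, 14 of 19 and 28.4%. TGACGTG, read by XBP1, was found in 0 of 7, 0 of 19 and 2.22%. These matches describe letters in a 300-base window and are not binding data.

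Transcripts of most acinar factors were lower in Pdx1cKO pancreata, and 7 of the 10 had no Pdx1cKO value as high as either control, which held for 11.7% of all genes. These were Bhlha15, Rbpjl, Nr5a2, Gata4, Ptf1a, Mecom and Foxp2. At an unadjusted limma p under 0.05, 5 of 10 were lower (Gata4, Rbpjl, Bhlha15, Mecom and Ptf1a), against 5.04% of all genes, and 0 were higher, against 5.29%. Of these 5 only Gata4 remained below 0.05 with Pdx1cKO 1, 2 or 3 left out or a sex covariate set from Xist added. Foxp2 entered when Pdx1cKO 1 was left out, where the 2 remaining Pdx1cKO mice share exactly the value 101.6. Its log2 fold change was then -0.147, nearer 0 than the -0.225 with all mice. After Benjamini-Hochberg adjustment over all 19938 genes 0 of the 10 passed in limma at 0.05, as did 0% of all genes in either direction. The median log2 fold change was -0.49 over the factors and -0.001 over all genes. Each p-value measures only the spread between these mice, and fewer acinar cells in the tissue cannot be told apart from less RNA per cell.

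**Figure D1:**
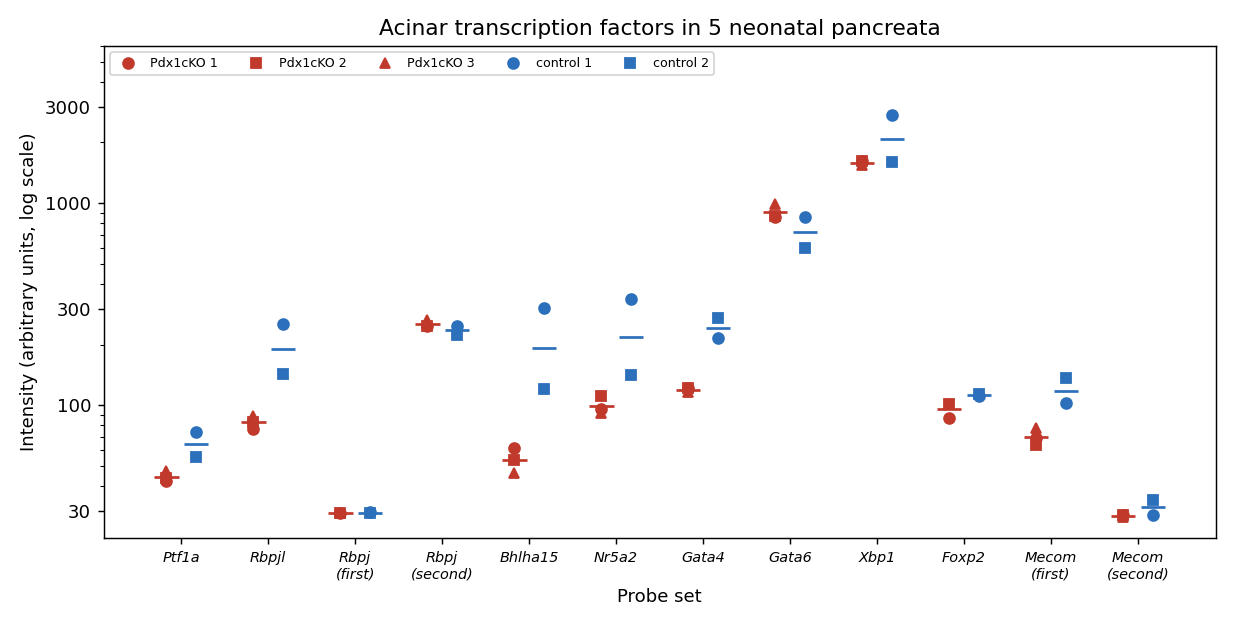
Intensity (arbitrary units, log scale) of the 12 probe sets of the 10 factors in each mouse, with Pdx1cKO (red) left of control (blue), bars at the geometric means and "first" and "second" for genes read by 2 probe sets (the first is the dimmer one for Rbpj and the brighter one for Mecom). Red points lie below blue points for Ptf1a, Rbpjl, Bhlha15, Nr5a2, Gata4, Foxp2 and the first Mecom probe set, and the controls are far apart for Bhlha15 and Nr5a2.

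The tissue pieces differed in ways that move with genotype or with 1 array. Summed intensity of 9 liver genes was 30291, 35467 and 14356 in Pdx1cKO mice 1, 2 and 3 and 5023 and 6309 in controls 1 and 2. Of the 9, 8 were higher in every Pdx1cKO mouse than in either control, against 12.0% of all genes. All 9 granulocyte and myeloid genes were likewise higher, with sums of 2508, 3606 and 1334 in Pdx1cKO and 447 and 458 in control, as were the 4 measured erythroid genes of 7 listed. Control 2 carried stomach and intestinal RNA: 10 of 11 stomach genes were measured, with sums of 623, 587 and 624 in Pdx1cKO, 484 in control 1 and 12021 in control 2, and 8 intestinal genes summed to 555 to 919 in Pdx1cKO, 520 in control 1 and 4617 in control 2. Xist was high in Pdx1cKO 1 and 2 (622 and 349) and the Y-linked Eif2s3y in the other arrays, so sex was unbalanced between groups. No marker was listed at 0, and the part of these differences in the results below was not tested except where a value is given. Pdx1 itself had intensities of 48.4, 48.4 and 42.9 in Pdx1cKO and 67.9 and 113 in control, a log2 fold change of -0.91 (SE 0.255, limma adjusted p = 0.385), in tissue whose islet cells keep the gene. Control 2, the array with stomach and intestinal RNA, was 1.66-fold above control 1 for Pdx1. The part of that RNA in the Pdx1 value was not tested.

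Of the PTF1 complex, Rbpjl had a more negative fold change than Ptf1a, and Rbpj was not lower. The 95% intervals of Rbpjl and Ptf1a overlap, and the difference between these genes was not tested. Rbpjl (probe set 10478474) had intensities of 76.2, 83.0 and 89.0 in Pdx1cKO and 253 and 142 in control. All 3 Pdx1cKO values lay in a narrow band below both controls, which themselves differed 1.78-fold. The log2 fold change was -1.20 (SE 0.291, 95% interval -2.04 to -0.37, limma adjusted p = 0.342), or 2.30-fold lower. Leaving out control 1 gave -0.79 and leaving out control 2 gave -1.62 (limma adjusted p = 0.0209), where the lone control is assumed to vary as the Pdx1cKO mice do, here and below.

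Ptf1a (probe set 10469565) had intensities of 42.3, 43.6 and 47.2 in Pdx1cKO and 74.3 and 55.7 in control. The groups did not overlap, but the gap between the highest Pdx1cKO mouse and control 2 was small. This gave a log2 fold change of -0.54 (SE 0.151, 95% interval -0.97 to -0.10, limma adjusted p = 0.386), or 1.45-fold lower. Leaving out control 1 made it -0.33, and leaving out control 2 made it -0.74 (limma adjusted p = 0.0464). These are dim signals, below the array medians of 61.0 to 61.9 in all 3 Pdx1cKO mice, and since the files hold no detection calls it is unknown how far they lie above background.

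Rbpj was read by 2 probe sets that differed in brightness. The brighter one (10521913) had intensities of 247.5, 247.5 and 265.1 in Pdx1cKO and 247.5 and 223.4 in control, with 3 of the 5 arrays at exactly the same value. The dimmer one (10521911) stayed between 29.3 and 29.7 in all 5 arrays. Their mean gave a log2 fold change of 0.05 (SE 0.0358, 95% interval -0.05 to 0.15, limma adjusted p = 0.515), an interval that lies wholly above the Rbpjl value. Whole tissue does not separate Rbpj transcripts of acinar cells from those of other cells, and the part of other cells was not tested. Within each array, the change of Rbpjl minus that of the brighter Rbpj probe set, both relative to the control mean, was -1.39, -1.27 and -1.26 on the log2 scale in Pdx1cKO mice and 0.34 and -0.34 in controls, a difference of -1.31 (exact permutation test, two-sided, p = 0.1, the smallest that 3 against 2 arrays allow). This was 1 of 3 pairs of related factors compared, all chosen after their values were seen.

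The partners and regulators of these factors showed no shared direction. Of 18 measured genes, 1 was lower and 3 were higher at an unadjusted limma p under 0.05 (5.04% and 5.29% of all genes), with a median log2 fold change of -0.01. Tcf3, which encodes the E-protein partner of PTF1A, had intensities of 270, 289 and 269 in Pdx1cKO and 236 and 217 in control (log2 fold change 0.28, SE 0.0575, limma adjusted p = 0.289). Id2, whose product binds E-proteins and keeps them from DNA, was 1422, 1604 and 1431 in Pdx1cKO and 1093 and 1233 in control (log2 fold change 0.35, limma adjusted p = 0.351). The corepressor genes Ctbp1 and Ctbp2 had log2 fold changes of 0.29 and -0.17.

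Bhlha15 had the most negative fold change of the 10 factors, and 65 of the 19938 genes had a more negative one. Its product drives the growth of the secretory granule compartment. Probe set 10527323 had intensities of 61.6, 53.6 and 46.4 in Pdx1cKO and 305 and 120 in control. The highest Pdx1cKO value was well below the lower control, but the controls differed 2.54-fold. Its log2 fold change was -1.84 (SE 0.473, 95% interval -3.20 to -0.48, limma adjusted p = 0.357), or 3.58-fold lower. With control 1 left out it was -1.17, and with control 2 left out -2.51 (limma adjusted p = 0.0274). The change of Bhlha15 minus that of Ptf1a, the other bHLH factor, was -1.03, -1.27 and -1.60 on the log2 scale in the Pdx1cKO mice and 0.47 and -0.47 in controls (difference -1.30, exact permutation p = 0.1).

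Genes known as BHLHA15 targets were lower less uniformly. All 6 had negative log2 fold changes (median -0.43), 2 were lower at an unadjusted limma p under 0.05 (5.04% of all genes) and 3 lay lower without overlap between groups (11.7% of all genes). The median was -0.50 when control 1 was left out and -0.70 when control 2 was left out. Rab3d, a small GTPase of the zymogen granule, had intensities of 206, 180 and 181 in Pdx1cKO and 412 and 379 in control. Its log2 fold change of -1.07 had a small error (SE 0.085, limma adjusted p = 0.183), with the controls close together. Rab26, another granule GTPase, was 45.5, 51.2 and 53.2 in Pdx1cKO and 95.5 and 84.5 in control (log2 fold change -0.85, SE 0.0997, limma adjusted p = 0.197). Atp2c2, a Golgi calcium pump, and Ccpg1, a receptor for autophagy of the endoplasmic reticulum, had log2 fold changes of -0.25 and -0.54, with overlap between groups for Ccpg1 at the value 204.

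Xbp1 encodes the factor that raises the folding and export capacity of the endoplasmic reticulum, and its difference rested on 1 control. Probe set 10374035 had intensities of 1612, 1612 and 1545 in Pdx1cKO and 2733 and 1592 in control. Control 2 lay within the range of the Pdx1cKO mice and only control 1 above it. The log2 fold change was -0.39 (SE 0.264, 95% interval -1.15 to 0.37, limma adjusted p = 0.515), and the value was -0.002 when control 1 was left out and -0.78 when control 2 was left out (limma adjusted p = 0.0102). An array read of total Xbp1 transcript does not separate the spliced form.

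Of 18 genes of the endoplasmic reticulum known as XBP1 targets, 5 were lower and 0 higher at an unadjusted limma p under 0.05. Over all genes these shares were 5.04% and 5.29%. The median log2 fold change of the list was -0.23. Without overlap, 8 lay lower (44.4%, against 11.7% of all genes) and 4 higher in Pdx1cKO, where the share over all genes was 12.0%. The list median was -0.02 when control 1 was left out and -0.28 when control 2 was left out. The cochaperone gene Dnajb11 had a log2 fold change of -0.35, the signal recognition particle receptor gene Srpr -0.49, the translocon gene Sec61b -0.37 and the chaperone gene Hyou1 -0.35 (limma adjusted p = 0.298 to 0.340). Values over the list ran from -0.93 for Edem1, which serves the disposal of misfolded proteins, to 0.25 for Pdia3, a disulfide isomerase.

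Nr5a2 encodes a nuclear receptor of acinar, liver and gut epithelium. Probe set 10358210 had intensities of 95.6, 111 and 91.6 in Pdx1cKO and 336 and 142 in control. The groups did not overlap, with control 2 close to Pdx1cKO 2 and control 1 standing 2.38-fold above control 2. For Nr5a2 the log2 fold change was -1.14 (SE 0.432, 95% interval -2.38 to 0.10, limma adjusted p = 0.515), and leaving out control 1 gave -0.51, while leaving out control 2 gave -1.76 (limma adjusted p = 0.0285). Liver RNA, in which Nr5a2 is also expressed, was higher in Pdx1cKO, and its part in the Nr5a2 value was not tested.

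Of 5 measured genes known as NR5A2 targets, 4 were lower at an unadjusted limma p under 0.05, against 5.04% of all genes. Of the 5, 4 are themselves digestive enzyme genes. Prss2, a trypsinogen gene, had a log2 fold change of -2.72, the elastase gene Cela3b -2.56, the carboxyl ester lipase gene Cel -1.48 and the chymotrypsinogen gene Ctrb1 -1.30 (limma adjusted p = 0.189 to 0.319). Nr0b2, a nuclear receptor and target in liver, had -0.72.

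Gata4 had the smallest p of the 10 factors and was the only one with an unadjusted limma p under 0.05 whichever mouse was left out. Probe set 10420747 had intensities of 122, 122 and 116 in Pdx1cKO and 214 and 269 in control. The 3 Pdx1cKO mice were nearly equal, and both controls lay clearly above them. The resulting log2 fold change was -1.0 (SE 0.115, 95% interval -1.33 to -0.68, limma adjusted p = 0.189), or 2.01-fold lower. It was -1.17 with control 1 left out (limma adjusted p = 0.00671) and -0.84 (limma adjusted p = 0.0115) with control 2 left out, the array with stomach and intestinal RNA, tissues that also express Gata4.

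Gata6, the closest relative of Gata4 in the pancreas, was not lower. Probe set 10453857 had intensities of 857, 869 and 993 in Pdx1cKO and 857 and 601 in control, with the same value in Pdx1cKO 1 and control 1. The log2 fold change was 0.33 (SE 0.190, 95% interval -0.21 to 0.88, limma adjusted p = 0.515), and it ran from 0.08 without control 2 to 0.59 without control 1. Within each array the change of Gata4 minus that of Gata6 was -1.24, -1.25 and -1.52 on the log2 scale in Pdx1cKO mice and -0.42 and 0.42 in controls, a difference of -1.34 (exact permutation p = 0.1). Mesenchyme also expresses Gata6 and other GATA factors, and 8 of 8 mesenchymal markers had positive log2 fold changes (median 0.33, 0.63 when control 1 was left out and 0.08 when control 2 was left out). The part of mesenchyme in the Gata6 value was not tested.

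Among 9 further genes of the GATA, FOXP, PRDM and NR5A families, 0 were lower and 1 was higher at an unadjusted limma p under 0.05, against 5.04% and 5.29% of all genes, a count of 1 that is near the share over all genes. Without overlap, 2 lay lower and 3 higher (Gata1, Gata2 and Gata3), against 11.7% and 12.0% of all genes. Gata1, a factor of erythroid cells, was 71.2, 94.7 and 54.4 in Pdx1cKO and 41.5 and 40.7 in control (log2 fold change 0.80, limma adjusted p = 0.469), with Pdx1cKO mice in the same order as for the erythroid sums of 758, 1096 and 474. Gata2, a factor of blood progenitors and endothelium, had a log2 fold change of 0.81, Foxp4 -0.14 and Prdm16 -0.18.

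Mecom and Foxp2 encode zinc finger and forkhead factors expressed in acinar cells. Mecom was read by a brighter probe set (10497590) with 68.8, 63.9 and 77.2 in Pdx1cKO and 102.3 and 136.0 in control, and by a dimmer one (10497608) with 28.7, 28.7 and 28.0 in Pdx1cKO and 28.7 and 34.1 in control. The brighter probe set separated the groups and the dimmer one did not, with log2 differences of -0.76 and -0.14. Their mean had a log2 fold change of -0.45 (SE 0.118, 95% interval -0.79 to -0.11, limma adjusted p = 0.364), and it was -0.61 when control 1 was left out (limma adjusted p = 0.0346) and -0.28 when control 2 was left out. Gastric epithelium also expresses Mecom, and control 2 held both the stomach RNA and the higher Mecom value.

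Foxp2 (probe set 10536444) had intensities of 86.3, 102 and 102 in Pdx1cKO and 111 and 114 in control. The groups lay close but apart. The log2 fold change was -0.23 (SE 0.0927, 95% interval -0.49 to 0.04, limma adjusted p = 0.515), and it was -0.15 when Pdx1cKO 1, the lowest of the mice, was left out (limma adjusted p = 0.609). Pdx1cKO 2 and 3 hold exactly the same Foxp2 value, which narrows the spread behind the second p-value.

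**Figure D2:**
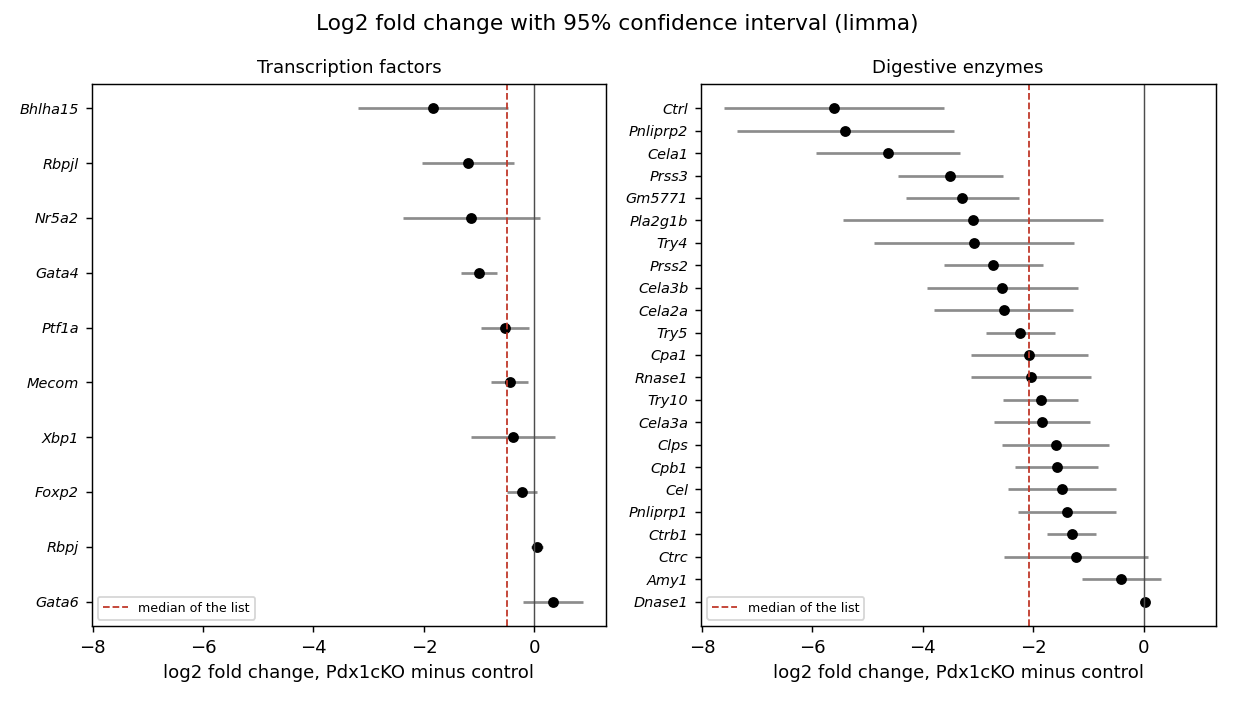
Log2 fold change (Pdx1cKO minus control) with its 95% confidence interval from limma for the 10 factors (left) and 23 digestive enzymes (right), on 1 shared axis. The factor median of -0.49 (dashed) lies nearer 0 than the enzyme median of -2.07, and only Bhlha15 among the factors comes close to it.

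The digestive enzymes are the outputs of these factors, and their transcripts were lower by more. Of 29 listed enzyme genes 23 were measured, and 22 had negative log2 fold changes. At an unadjusted limma p under 0.05, 20 were lower, against 5.04% of all genes. In every Pdx1cKO mouse 21 lay below both controls, against 11.7% of all genes. Their median log2 fold change was -2.07. Cela1, the elastase gene whose promoter is shown above, had intensities of 93.3, 107 and 163 in Pdx1cKO and 4186 and 2013 in control (log2 fold change -4.62, SE 0.455, limma adjusted p = 0.183). The trypsinogen genes Prss3, Try5 and Gm5771 had log2 fold changes of -3.50, -2.23 and -3.28. They belong to a family of near-identical copies that the probes may not separate. Dnase1, a nuclease gene, and Amy1, a salivary and hepatic amylase gene, stood apart at 0.02 and -0.40. Dnase1 was dim in all 5 arrays (30.5 to 32.1, below the array medians), so a fall might not be seen. All 11 other acinar products had negative log2 fold changes (median -3.52), among them the trefoil peptide gene Tff2 (-4.46), the mucosal glycoprotein gene Dmbt1 (-4.20), the granule protein gene Sycn (-5.06) and the serpin gene Serpini2 (-4.57).

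Set against the enzyme median within each array, the mean change of every factor lay higher. The gap was 0.30 on the log2 scale for Bhlha15 and 0.93 to 2.47 for the other 9. Among the 9, Rbpj and Gata6 had positive log2 fold changes. The enzyme median stood at -2.50, -2.19 and -1.72 relative to the control mean in Pdx1cKO mice 1, 2 and 3 and at 0.35 and -0.35 in the controls. Rbpjl stood above it by 1.19, 0.99 and 0.62 in Pdx1cKO, against 0.07 and -0.07 in control, a difference of 0.93. Ptf1a stood above it by 1.90, 1.63 and 1.27 in Pdx1cKO, against -0.14 and 0.14 in control, a difference of 1.60. The groups did not overlap on this measure for 9 of the 10 factors. For 7 of these the exact permutation test gave 0.1, its smallest two-sided p with 3 against 2 arrays, so that it cannot reach 0.05. Rbpj, with a log2 fold change of 0.05, was among the 7 (difference 2.185), since the enzymes' fall alone sets an unchanged gene above their median. These counts therefore do not show that a factor changed, and the share over all genes was not computed. Nr5a2 (difference 1.00) and Gata4 (1.13) had an exact p of 0.2. Bhlha15 was the exception (difference 0.30, exact p = 0.5), with 0.87, 0.35 and -0.33 in Pdx1cKO overlapping 0.32 and -0.32 in control. For 11 of the 23 enzymes a control came within 1 log2 unit of its array's brightest probe set, where a scanner's upper range can compress a difference. Background can likewise limit how far a dim factor falls, which would set it above the enzymes. Control geometric means were lowest for Ptf1a (64.3) and Mecom (60.8), against 718 for Gata6 and 2090 for Xbp1. In Pdx1cKO, Bhlha15 was also dim, at 61.6, 53.6 and 46.4, near or below the array medians. The part of this limit in the differences was not tested, since the height of these signals above background is unknown. With the mean of the enzymes in place of their median the difference was 0.57 for Bhlha15 (exact p = 0.4), 1.27 for Nr5a2 and 1.40 for Gata4 (exact p = 0.1 each). Over the 12 dimmer enzymes alone, chosen after the data were seen, the differences were 1.04 for Bhlha15 (exact p = 0.2), 1.68 for Rbpjl and 2.34 for Ptf1a (exact p = 0.1 each).

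**Figure D3:**
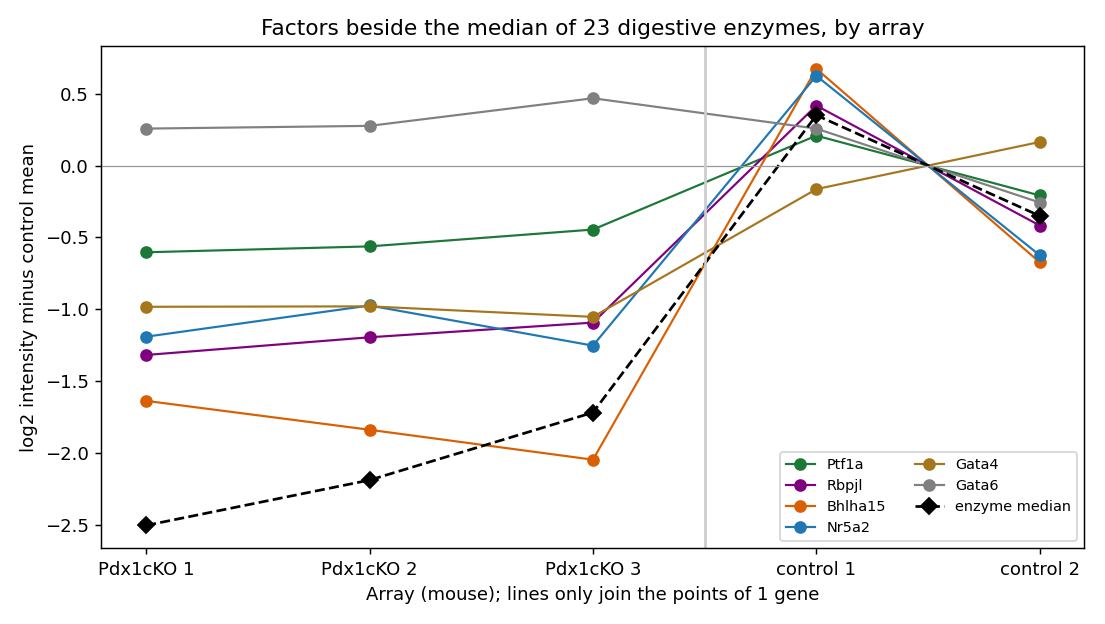
Log2 intensity minus the control mean in each of the 5 arrays (Pdx1cKO mice left, controls right) for 6 factors and, dashed, the median of 23 digestive enzymes. The enzyme median is lowest in Pdx1cKO 1 (-2.50) and highest of the Pdx1cKO mice in Pdx1cKO 3 (-1.72), while Bhlha15 is -1.64 and -2.05 in the same mice, and Gata6 lies above 0 in all 3.

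The order of the mice within a genotype differed between factors. Ptf1a, Rbpjl, Rbpj, Gata6 and Mecom were highest in Pdx1cKO 3, as were 19 of 23 enzymes and 10 of 11 other acinar products. The same held for 7 of 8 mesenchymal, 5 of 7 endothelial and 4 of 4 mesothelial markers. It held for 0 of 6 islet hormone genes and 0 of 7 duct genes. Bhlha15, Nr5a2, Gata4 and Xbp1 were instead lowest in Pdx1cKO 3, the mouse with the smallest liver, granulocyte and erythroid sums of the 3. Between the controls, 7 of the 10 factors were higher in control 1 (median ratio of control 1 to control 2 1.38), as were 21 enzymes (median ratio 1.63) and 10 of the 11 other acinar products (2.25). Gata4, Mecom and Foxp2 were higher in control 2. With 3 and 2 mice these orders are given as values and were not tested.

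Genes with the most similar pattern over the 5 arrays were found by Euclidean distance between log2 values centred on the control mean. Nearest to Rbpjl were Ero1b, an oxidase of protein folding (distance 0.20), Sel1l, part of the machinery that clears misfolded proteins (0.20), and Il22ra1, a receptor subunit of acinar cells (0.24). Sel1l had intensities of 430, 545 and 561 in Pdx1cKO and 1470 and 842 in control. Of the other factors, Nr5a2 came closest to Rbpjl (distance 0.42). Nearest to Bhlha15 were Rap1gap, a regulator of the GTPase RAP1 (0.36), the kallikrein gene Klk1b5 (0.41) and Gatm, an enzyme of creatine synthesis (0.51). Nearest to Ptf1a were 5730507C01Rik (0.11), Wdyhv1 (0.13) and Tmem229a (0.14).

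Other transcription factors of the pancreatic epithelium had log2 fold changes of -1.03 to 0.03. The lowest, that of the foregut factor gene Foxa1, rested on control 2, the array with stomach and intestinal RNA: intensities were 50.3, 48.4 and 40.5 in Pdx1cKO and 44.1 and 203 in control, and the value was 0.07 when control 2 was left out. Of 14 listed, Pdx1 included, 12 were measured and 11 had negative log2 fold changes. The median was -0.34, -0.52 when control 1 was left out and -0.25 when control 2 was left out. At an unadjusted limma p under 0.05, 4 of the 12 were lower, against 5.04% of all genes. Sox9, a factor of ducts and progenitors, was 172, 138 and 157 in Pdx1cKO and 262 and 229 in control (log2 fold change -0.66, SE 0.127, limma adjusted p = 0.279). Foxa2, a factor of foregut endoderm, had a log2 fold change of -0.49 and Nkx6-1, a factor of trunk and beta cells, -0.27. Markers of other pancreatic cells, by list median, were at -0.97 for 6 islet hormone genes, -0.80 for 7 duct genes (Sox9 among them), 0.33 for mesenchyme, 0.40 for endothelium and 0.02 for mesothelium. When control 2 was left out they were -1.08, -0.49, 0.08, 0.15 and -0.50 in the same order, and when control 1 was left out -0.81, -0.81, 0.63, 0.51 and 0.53.

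**Figure D4:**
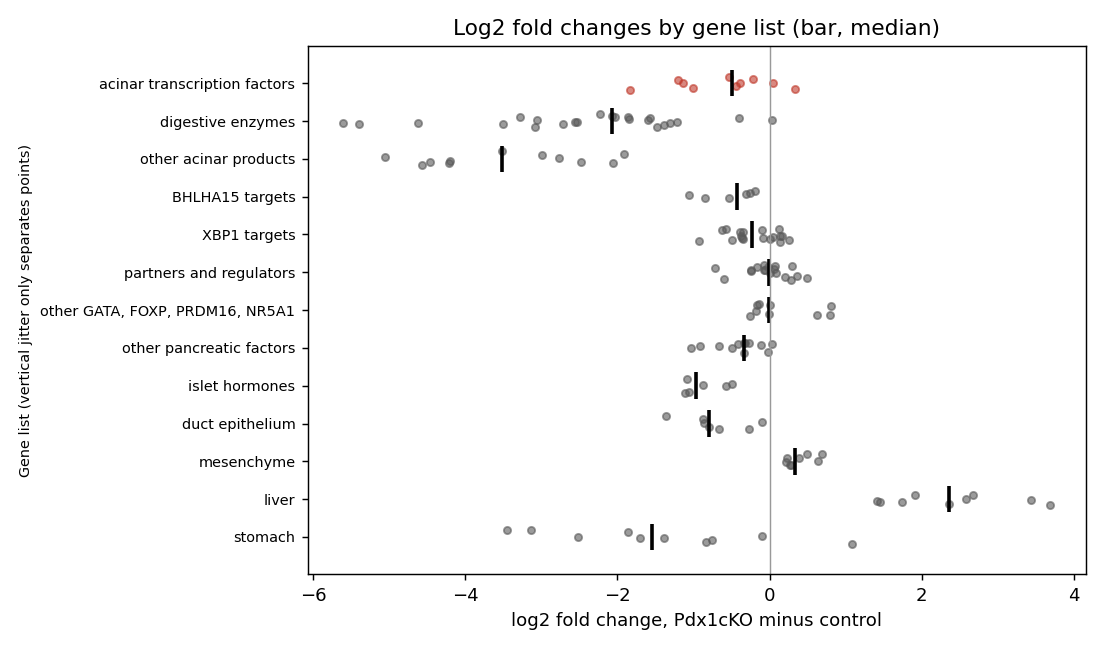
Log2 fold changes (Pdx1cKO minus control) of the genes of each list, 1 point per gene, with a bar at the median and the acinar transcription factors in red. The factors (median -0.49) lie between the enzymes (-2.07) and their partners and regulators (-0.01), with liver genes at 2.35.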

How the data were processed

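Pancreata were collected at postnatal day 1 from 3 Pdx1cKO mice and 2 control mice, and the RNA of each mouse was read on its own Mouse Gene 1.0 ST array. The authors deposited linear intensities analysed with GeneSpring GX 12.1. Near-equal array medians show that they were normalized between arrays, but for the method and any background correction the sources used here name nothing. Exact ties between arrays were frequent, in 67.7% of all probe sets and 6 of the 12 of the factors, and 16.3% of all held the same value in all 3 Pdx1cKO mice, which lowers the spread estimated between mice. The lowest intensity per array was 18.0 to 18.3. The number of mice limits the precision.

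Log2 was taken with no pseudocount and no scaling. The platform annotation gave 1 symbol to 21789 probe sets, several to 1621 and none to 5443. Of the first, 21698 matched RefSeq by Entrez gene. Probe sets with 1 symbol were averaged per gene, which left 19938 genes. Python 3.11.15 with pandas 2.3.3 was used to read the tables. Genotypes were compared in R 4.3.3 with limma 3.58.1 (lmFit, eBayes) and Benjamini-Hochberg adjustment over all genes, and the step was tested on simulated data. Factors were set beside enzymes with exact permutation tests over the 5 arrays. Genes named are the 10 factors, the 4 genes with the smallest p of each other list described in full, list extremes, Pdx1 and, for Rbpjl, Bhlha15 and Ptf1a, the 3 nearest patterns. Edem1, Pdia3, Nr0b2, Gata3, Foxa1, Dnase1 and Amy1 were named after their values were seen, and Ctrl was chosen for its sequence in the same way. The factors and lists were chosen with earlier results of these data known, and genes counted as targets come from general knowledge. The alternatives tried were quantile normalization, median scaling, 2 filters on dim genes, single probe sets, each gene's brightest probe set, array weights, a robust eBayes with trend, a replicate block, leaving out each mouse, the methods' t-test, the mean in place of the median of the enzymes, and, added after the data were seen, the dimmer enzymes alone and a covariate for the sex pattern. Proteins of the factors were not analysed here.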

Additional observations from a re-analysis of the deposited data

How the results depend on the processing

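With all 5 mice, limma with Benjamini-Hochberg adjustment called 0 genes lower and 0 higher in Pdx1cKO, while 1005 and 1054 had an unadjusted p under 0.05. Leaving out 1 mouse gave 0 to 2072 genes lower, 0 to 1604 higher and 0 to 6 of the 10 factors lower: 1783 lower, 1604 higher and 2 factors (Gata4 and Mecom) without control 1, and 2072 lower, 995 higher and 6 factors (Ptf1a, Rbpjl, Bhlha15, Nr5a2, Gata4 and Xbp1) without control 2, where the lone control is assumed to vary as the Pdx1cKO mice do. By the methods' t-test 7 genes were lower and 3 higher after adjustment, and 5 factors lower at P under 0.05. The count of factors lower at an unadjusted limma p, 5 with all mice, was 3 among genes above the median level (Rbpjl, Bhlha15 and Gata4; Ptf1a and Mecom were too dim to be tested there), 1 with the replicate block, 1 with the sex covariate (Gata4 in both), and 1 to 7 without 1 mouse, with 2 (Gata4 and Foxp2, not among the 5) without Pdx1cKO 1 and 1 (Gata4) without Pdx1cKO 2 or 3. Foxp2 entered without Pdx1cKO 1 with a smaller fold change and tied values in the 2 remaining Pdx1cKO mice. Same-numbered mice did not deviate together (correlation 0.0151), so the block joins mice that share only a number. The factor median of -0.49 was -0.70 above the median level and ran from -0.76 to -0.42 without 1 mouse, and the enzyme median from -2.40 to -1.88. Under the 16 alternatives each factor but Rbpj kept its sign wherever it was tested. Rbpj was negative only for its dimmer probe set alone (-0.01). Median scaling and quantile normalization each left 7 factors at an unadjusted p under 0.05, with Nr5a2 and Foxp2 added. The number of mice and the dim signals of Ptf1a and Mecom limit what can be read from these values.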
